A study of Homo sapiens with 6 samples.

Results

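The genes of the BCL2 family, the caspases, the proteins released from mitochondria and the death receptors were examined in cardiomyocytes differentiated from human pluripotent stem cells (hiPSC-CMs) and exposed to alcohol with or without losartan, a blocker of the angiotensin II type 1 receptor. The genes were chosen by name. Of 39 names, 38 were listed as symbols among the 21134 genes of the series, and the remaining name, BIM, is another name of BCL2L11, which was listed. RNA sequencing covered 3 groups of 2 libraries each: control cells that received neither agent, cells kept for 24 h in 100 mM alcohol (alcohol), and cells kept for 24 h in 100 mM alcohol together with losartan at 1 μM (co-treated). No group received losartan alone, so an effect of losartan without alcohol could not be compared. The labels describe cells derived from induced pluripotent stem cells and name 1 line for all groups, H9, which was derived from a human embryo and is not an induced line.

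Apoptosis is a form of programmed cell death with an intrinsic, mitochondrial route and an extrinsic route through receptors on the cell surface. In the intrinsic route, BH3-only proteins neutralise the antiapoptotic BCL2 proteins or activate BAX and BAK1, which open the outer mitochondrial membrane. Cytochrome c then leaves the mitochondria and joins APAF1 and CASP9 in the apoptosome, while DIABLO and HTRA2 counter the inhibitor of apoptosis proteins. In the extrinsic route, ligated death receptors recruit adaptors such as FADD and thereby CASP8 and CASP10. Many of these proteins are controlled after translation, by cleavage, binding or phosphorylation, which RNA levels do not show.

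The expected counts of a library, which are estimates of the reads from each gene, summed to 4898287 to 5051448, so that a floor of 3 counts stood at 0.594 to 0.612 CPM (counts scaled to library size). Log2 CPM of the replicates correlated at 0.975 to 0.978 across genes. All 10 cardiomyocyte markers were detected in every library, with summed levels of 25180 and 24790 FPKM in the controls, 24190 and 17790 FPKM with alcohol and 20720 and 22540 FPKM in co-treated cells (FPKM is a level per length of transcript, scaled to the fragments of the library). The fibroblast list of 8 genes summed to 421 to 518 FPKM, the pluripotent list of 4 to 10.4 to 19.1 FPKM, and the leukocyte list of 2 to 2.91 to 4.12 FPKM. The cardiomyocyte, fibroblast, smooth muscle, endothelial and endoderm sums each separated both control libraries from the other 4. The fibroblast sum did so narrowly, at 467 and 421.1 FPKM in the controls and 467.5 FPKM in the lowest of the others. The largest part of the cardiomyocyte sum was MYL7, at 14510 and 16180 FPKM in the controls. MYL7 stood at 12610 and 9321 FPKM with alcohol and 10240 and 11850 FPKM in co-treated cells. With alcohol 5 of the 10 cardiomyocyte markers had a fitted value above 0 and 5 below (50.6% of all genes were below 0). In co-treated cells 7 of the 10 were below 0 against alcohol (49.7% of all genes) and 7 against control (50.2% of all genes). Smooth muscle markers (MYH11, CNN1, ACTA2 and TAGLN) summed to 1926 and 1689 FPKM in the controls, 1451 and 722 FPKM with alcohol and 991 and 1036 FPKM in co-treated cells. The 4 endothelial markers summed to 4.92 and 4.65, 6.16 and 7.43, and 7.97 and 8.96 FPKM in the same order, most of it from KDR, and VWF was at 0 in a co-treated library. The 4 endoderm markers, mostly AFP and APOA1, summed to 36.3 and 34.7, 47.3 and 47.4, and 43.8 and 47.0 FPKM, with FOXA2 at 0 in both controls. The part of any of these lists in the results below was not tested. In RNA from whole cultures, fewer cells of a type and less RNA per cell cannot be told apart.

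In the control cells the 38 genes spanned levels from 0 to 170 FPKM, with 19 genes above 10 FPKM and 4 below 1 FPKM. TNFRSF12A, the receptor of the cytokine TWEAK, had the highest level at 170 ± 28.8 FPKM (SD, n = 2). AIFM1, CYCS and MCL1 followed at 69.8 ± 4.24, 69.5 ± 4.65 and 60.1 ± 5.21 FPKM. The ranges of AIFM1 and CYCS overlapped, whereas both libraries of MCL1 lay below those of CYCS. BAX, BCL2L1, ENDOG, BAD and CFLAR formed a run of overlapping neighbours between 35.3 ± 9.97 and 31.2 ± 1.08 FPKM. Of the 37 pairs of neighbours in this order, 20 overlapped in their libraries and 17 did not. BCL2, the gene that names the family, stood near the bottom at 0.56 ± 0.16 FPKM, with 21 and 15 expected counts. BCL2A1, HRK and BIRC3 had at most 7 expected counts in any library, did not pass the filter on low counts and were not tested, which left 35 genes.

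**Figure D1:**
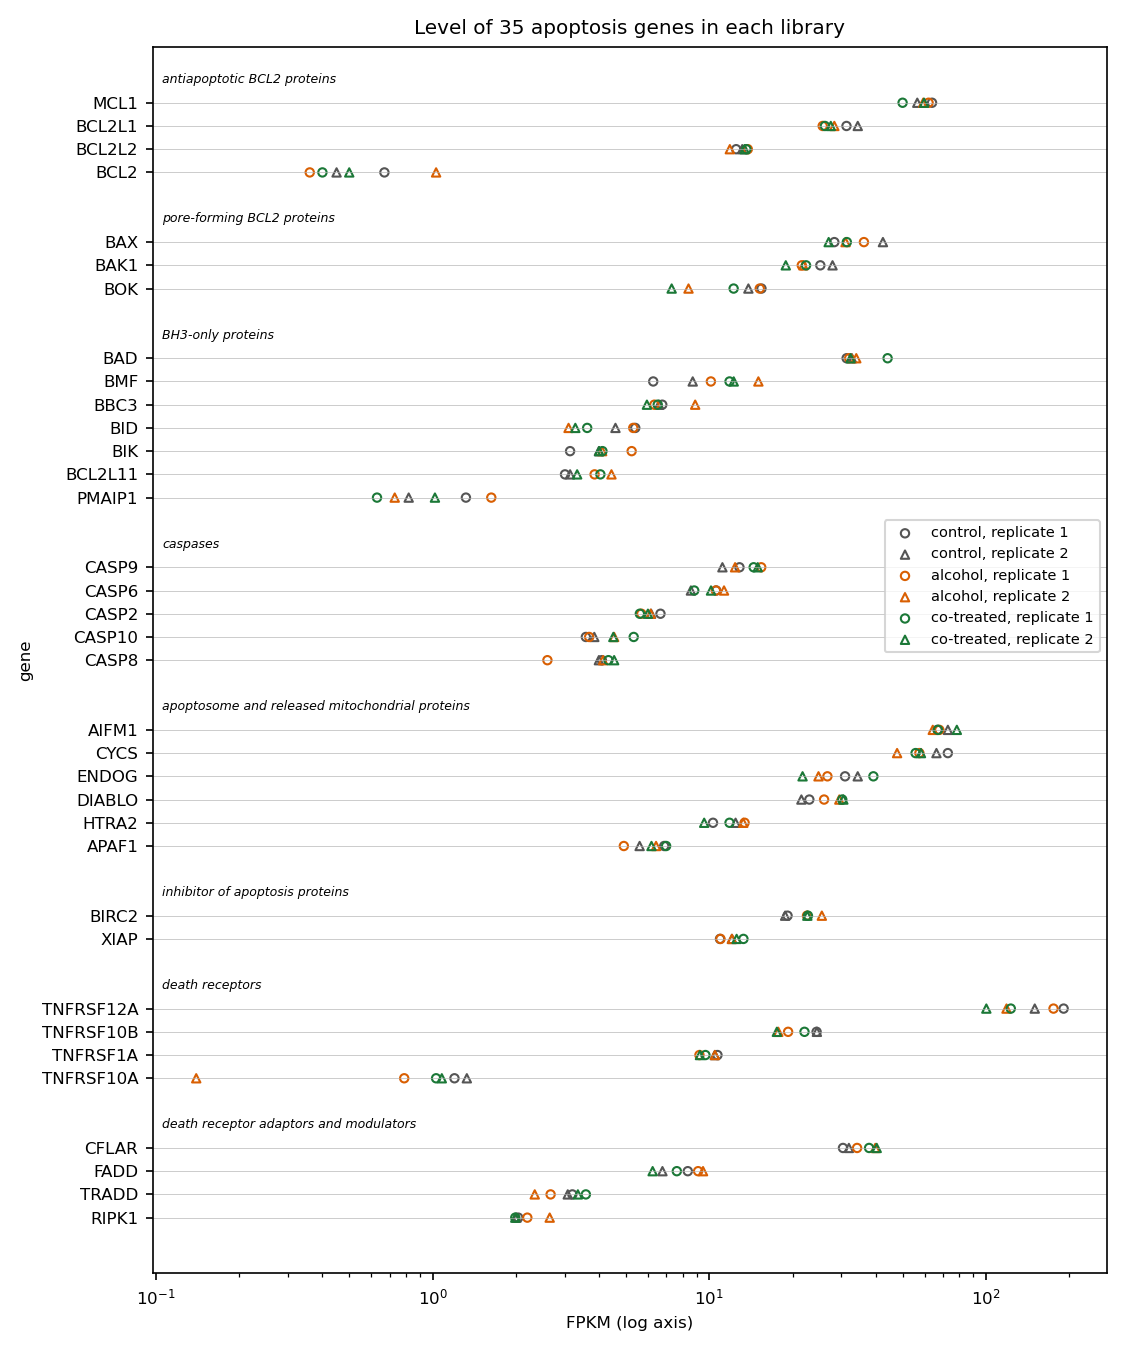
Level of the 35 tested apoptosis genes in each of the 6 libraries, in FPKM on a log axis, grouped by role and ordered within a role by mean level. Colours give the treatment and symbols the replicate; the 6 libraries of most genes lie close together relative to the distance between genes, and TNFRSF10A in alcohol replicate 2, at 0.14 FPKM, lies farthest from its own group.

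Across the 6 libraries the 35 genes varied about as much as all genes tested. The ratio of the highest to the lowest library, in CPM with a small constant added, had a median of 1.44 over the 35 genes. It was 1.47 over all 14926 genes tested. Of the 35 genes, 21 had a ratio under 1.5 and 4 over 2, and these shares were not counted over all genes. The steadiest was XIAP, a direct caspase inhibitor, with a ratio of 1.18, followed by TNFRSF1A, the main TNF receptor, at 1.19. Only PMAIP1, BMF, BOK and TNFRSF10A exceeded 2. Of these, TNFRSF10A reached 4.70 on 1.18 to 11.7 expected counts and PMAIP1 reached 2.27 on 6 to 16. Both rest on few reads, and the added constant pulls such ratios toward 1.

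None of the 35 genes passed the test in any of the 3 comparisons (edgeR's quasi-likelihood test, Benjamini-Hochberg adjusted p under 0.05 over all genes tested). The background was low too, since 0.067% of all genes passed for alcohol against control, 0.0134% for co-treated against alcohol and 0.362% for co-treated against control. At an unadjusted p under 0.05, the alcohol libraries differed from control in 5 of the 35 genes (11.0% of all genes), namely BMF, TNFRSF10B, CYCS, BCL2L1 and BAK1. Co-treated and alcohol libraries differed in 1 gene, TNFRSF12A (5.55% of all genes). Co-treated and control libraries differed in 8 genes (12.6% of all genes), namely TNFRSF12A, BMF, DIABLO, BAK1, TNFRSF10B, BCL2L1, CYCS and BOK. The comparisons with control share the control libraries and are not independent. DESeq2 gave an adjusted p to 26, 35 and 30 of the 35 genes and called none of them. It called 0.741%, 0.0335% and 0.975% of the 9717, 14926 and 12611 genes of the whole series that it gave an adjusted p. Of the 35 genes, 3, 1 and 7 had an unadjusted p under 0.05 in DESeq2. In the same comparisons limma on log2(FPKM + 1) called none, with 7, 0 and 7 at an unadjusted p under 0.05. The smallest p that exact permutation of 2 against 2 libraries allows is 0.333. The 5 genes for alcohol against control became 2 without control replicate 1, 3 without control replicate 2 and 3 without alcohol replicate 2. The single gene for co-treated against alcohol became 4 without alcohol replicate 2 and 2 without co-treated replicate 2. The 8 for co-treated against control became 3 without control replicate 1, 5 without control replicate 2 and 3 without co-treated replicate 2.

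The fold changes of the 35 genes lay near those of all genes, less so for co-treated against control. In that comparison percentile 31 of all genes was -0.136, near the median of the 35 genes. Their median log2 fold change was -0.05 for alcohol against control, -0.05 for co-treated against alcohol and -0.13 for co-treated against control, where the medians of all genes were -0.0033, 0.0023 and -0.0017. With a library left out the medians of the 35 genes ranged from -0.11 to -0.0204, from -0.0634 to 0.0041 and from -0.13 to -0.0267, the last without control replicate 1. For alcohol against control, limma on log2(FPKM + 1) gave a median of 0.0024 for the 35 genes and 0.0303 for all genes. With alcohol 21 of the 35 had a fitted value below 0 and 14 above, and the background was 50.6% lower. In both comparisons of the co-treated libraries 20 of the 35 had a fitted value below 0, where the background was 49.7% against alcohol and 50.2% against control. The 2 libraries of each group did not overlap for 18 of the 35 genes with alcohol against control, where the background was 43.8%. The corresponding counts were 12 genes for co-treated against alcohol (33.6% of all genes) and 22 for co-treated against control (43.3% of all genes). For 29, 30 and 27 of the 35 genes, in the order of the comparisons, the 95% interval of the fold change lay wholly within a factor of 2, and for 17, 17 and 13 within a factor of 1.5.

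**Figure D2:**
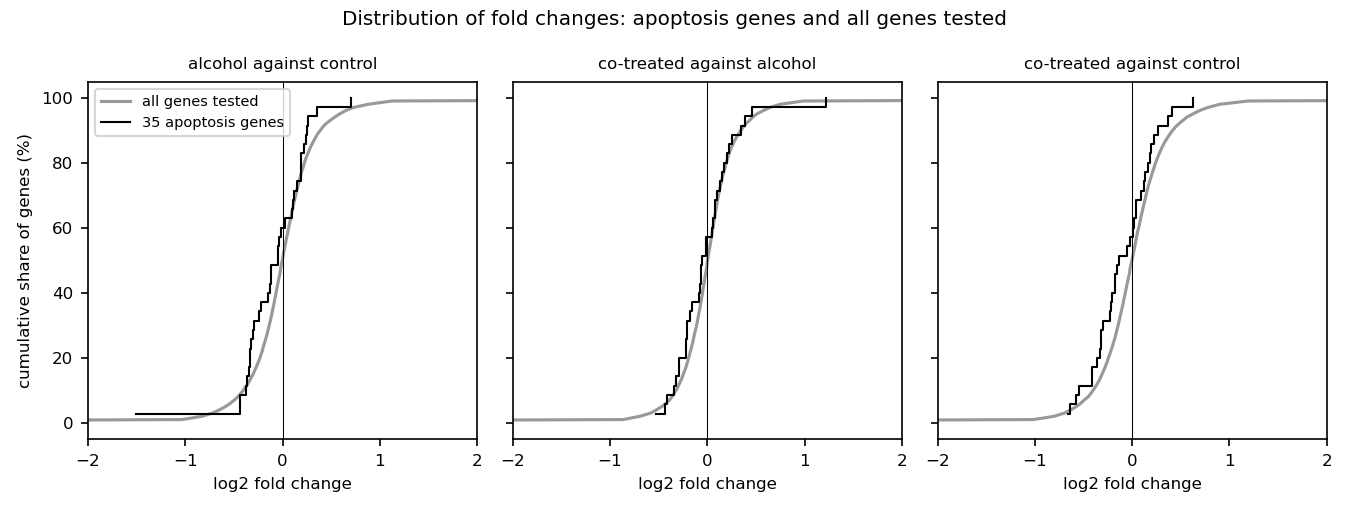
Cumulative share of genes, in percent, against the fitted log2 fold change for the 35 apoptosis genes (black steps) and all 14926 genes tested (grey line, drawn at its percentiles) in the 3 comparisons. The black steps run near the grey line, less so for co-treated against control. The median of the 35 genes lies at -0.05, -0.05 and -0.13.

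BH3-only proteins sense stress and set off the mitochondrial route. BMF, which binds antiapoptotic BCL2 proteins and in healthy cells is held at the actin and myosin cytoskeleton, had the smallest p of the 35 genes for alcohol against control. Its gene lies at chr15:40087890-40108879 in GRCh38.p14, the build of the RefSeq coordinates given here. BMF stood at 6.27 and 8.71 FPKM in the controls, 10.1 and 15.0 FPKM with alcohol and 11.8 and 12.3 FPKM in co-treated cells. All 4 libraries with alcohol lay above both controls, and alcohol replicate 2 was the highest. The fitted log2 fold change for alcohol against control was 0.71 (SE 0.18), a factor of 1.63 with a 95% interval of 1.24 to 2.14 (edgeR unadjusted p = 0.00187, adjusted p = 0.168). With 1 library left out it was 0.93 (edgeR adjusted p = 0.0311) without alcohol replicate 1, 0.45 (adjusted p = 0.876) without alcohol replicate 2 and 0.53 (adjusted p = 0.556) without control replicate 1, and over all alternatives the adjusted p ranged from 0.0311 to 0.876. Co-treated against control gave 0.63 (SE 0.18, edgeR adjusted p = 0.158). Co-treated against alcohol gave -0.07 with an interval of -0.45 to 0.30, so that a difference of up to a factor of 0.731 or 1.23 between these groups was not resolved.

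The 250 bases before the start of BMF and of CYCS are shown because these genes had the smallest unadjusted p for alcohol against control among the genes with a promoter in the RefSeq table, 1 higher and 1 lower. BMF lies on the minus strand, with these bases at chr15:40108880-40109129, and CYCS lies on the minus strand, with these bases at chr7:25125261-25125510. Both are written 5′ to 3′ on the strand of the gene, and capitals mark a CCAAT box (CCAAT, or ATTGG where the match is on the opposite strand) or a GC box (GGGCGG).
BMF: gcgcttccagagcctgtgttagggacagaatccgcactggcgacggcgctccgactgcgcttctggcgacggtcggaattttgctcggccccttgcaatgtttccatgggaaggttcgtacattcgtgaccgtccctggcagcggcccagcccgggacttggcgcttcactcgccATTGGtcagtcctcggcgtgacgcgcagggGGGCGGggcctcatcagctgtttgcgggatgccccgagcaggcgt
CYCS: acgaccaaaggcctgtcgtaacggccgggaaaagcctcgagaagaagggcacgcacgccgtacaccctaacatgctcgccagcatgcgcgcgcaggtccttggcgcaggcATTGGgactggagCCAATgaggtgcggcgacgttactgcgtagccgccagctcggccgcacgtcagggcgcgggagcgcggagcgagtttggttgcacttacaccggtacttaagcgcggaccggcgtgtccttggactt
Counted from 1 at the 5′ end, BMF had a CCAAT box at position 176 and a GC box at 206, and CYCS had CCAAT boxes at 111 and 124 and no GC box. Both strands were searched in the 30 of the 38 genes that the table held. CCAAT occurred in 14 of 30 (46.7%) against 33.0% of all 27305 promoters, and GGGCGG in 19 of 30 (63.3%) against 42.3%. TATAAA occurred in 3 of 30 (10.0%) against 11.1% and the E-box CACGTG in 2 of 30 (6.67%), in BBC3 and BAX, against 6.49%. The forkhead element TGTTTAC was found in BCL2L11 (813 promoters, 2.98%), and the AP-1 element TGACTCA in BBC3 (1136 promoters, 4.16%). The cyclic AMP response element TGACGTCA (1.77% of all promoters) and the NRF1 element (1.13%) occurred in none of the 30. A match is a stretch of letters and was not tested as a binding site. BCL2L2, MCL1, BIK, CASP10, TNFRSF10A, TNFRSF10B, TNFRSF12A and TRADD were not searched.

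The other BH3-only genes gave smaller or looser differences. BAD, which displaces BAX and BAK1 from BCL2L1 when it is not phosphorylated, had the highest level of this role. BAD stood at 31.3 and 32.7 FPKM in the controls, 32.0 and 34.0 FPKM with alcohol and 44.1 and 32.4 FPKM in co-treated cells, where 1 library was apart and the groups overlapped. Its log2 fold change with alcohol was -0.02 (SE 0.17). BCL2L11, the gene of BIM, was at 3.01 and 3.14 FPKM in the controls and at 3.85 and 4.43 FPKM with alcohol, but the deposited transcript length of this gene varied by a factor of 1.32 between libraries, and the log2 fold change on counts was 0.24 (SE 0.22, edgeR unadjusted p = 0.309). BBC3 (PUMA) and PMAIP1 (NOXA), both induced by stress, had log2 fold changes with alcohol of 0.12 (SE 0.24) and 0.11 (SE 0.59). BIK gave 0.35 (SE 0.41) and BID, the link from death receptors to mitochondria, gave -0.29 (SE 0.30). In all, 5 of the 7 BH3-only genes tested had a fitted value above 0 with alcohol (50.6% of all genes were below 0), with a median log2 fold change of 0.12. For co-treated against alcohol 6 of 7 had a fitted value below 0 (49.7% of all genes), with a median of -0.21 and no unadjusted p under 0.05. BMF alone of the 7 had an unadjusted p under 0.05 in either comparison with control.

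Antiapoptotic BCL2 proteins hold BH3-only and pore-forming proteins in check. MCL1, a short-lived member on which cardiomyocytes are known to depend, had the highest level of this role. MCL1 stood at 63.8 and 56.4 FPKM in the controls, 62.0 and 59.3 FPKM with alcohol and 49.9 and 59.7 FPKM in co-treated cells, and the 3 groups overlapped. Its log2 fold change was -0.04 (SE 0.13) with alcohol and -0.22 (SE 0.13) for co-treated against control, with intervals of -0.32 to 0.24 and -0.50 to 0.06. BCL2L1 (BCL-XL), at chr20:31664452-31723963, stood at 31.3 and 34.4 FPKM in the controls, 25.7 and 28.3 FPKM with alcohol and 26.2 and 27.5 FPKM in co-treated cells. Both controls lay above the other 4 libraries. For BCL2L1 the log2 fold change was -0.30 (SE 0.12, edgeR unadjusted p = 0.0265, adjusted p = 0.375) with alcohol and -0.32 (SE 0.12, unadjusted p = 0.0205, adjusted p = 0.290) for co-treated against control. Co-treated against alcohol gave -0.02 with an interval of -0.28 to 0.25. BCL2L2 (BCL-W) lay between 11.9 and 13.8 FPKM in all libraries, and it shares its locus with the readthrough gene BCL2L2-PABPN1, so that reads between the pair are uncertain.

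BCL2 itself shows how the deposited level can move without the reads. Its FPKM was 0.67 and 0.45 in the controls, 0.36 and 1.03 with alcohol and 0.40 and 0.50 in co-treated cells, with alcohol replicate 2 the highest. The expected counts of the same libraries were 21 and 15, 12 and 17, and 13 and 12. The length that the authors assigned to BCL2 was 3353.83 bases in alcohol replicate 2 and 6492 bases in alcohol replicate 1. On counts the log2 fold change of BCL2 with alcohol was -0.33 (SE 0.46), with an interval of -1.32 to 0.65. A length that differed between libraries by a factor over 1.1 was also found for BCL2L11, BIRC3, CASP6, CASP10 and CFLAR, which makes 6 of the 38 genes.

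The pore-forming proteins BAX, BAK1 and BOK all had lower fitted values in each comparison (50.6%, 49.7% and 50.2% of all genes), and none passed the test. BAX stood at 28.3 and 42.4 FPKM in the controls, 36.2 and 31.1 FPKM with alcohol and 31.4 and 27.0 FPKM in co-treated cells. The spread between the controls covered all but the lowest co-treated library. Its log2 fold change was -0.11 (SE 0.20) with alcohol and -0.32 (SE 0.21) for co-treated against control. The ratio of BAX to BCL2L1 in FPKM, often taken as a gauge of the balance between the groups, was 0.904 and 1.23 in the controls, 1.41 and 1.1 with alcohol and 1.2 and 0.983 in co-treated cells, and the 3 groups overlapped. BAK1, at chr6:33572552-33580276, stood at 25.2 and 27.9 FPKM in the controls, 21.6 and 21.9 FPKM with alcohol and 22.4 and 18.9 FPKM in co-treated cells. Both controls were above the other 4 libraries. BAK1 gave a log2 fold change of -0.33 (SE 0.14, edgeR unadjusted p = 0.0363, adjusted p = 0.411) with alcohol and -0.41 (SE 0.14, unadjusted p = 0.0119, adjusted p = 0.242) for co-treated against control. BOK, a BAX-like protein that can act without BAX and BAK1, stood at 15.4 and 13.8 FPKM in the controls, 15.2 and 8.41 FPKM with alcohol and 12.2 and 7.31 FPKM in co-treated cells. Alcohol replicate 2 and both co-treated libraries lay below both controls, while alcohol replicate 1 lay between them. Replicate 2 was the lower of each pair, the controls included. For co-treated against control, BOK gave -0.63 (SE 0.27, edgeR unadjusted p = 0.0372, adjusted p = 0.353), which was -1.03 when co-treated replicate 1 was left out and -0.32 when replicate 2 was. BOK overlaps the antisense RNA BOK-AS1, which had 1 to 12 expected counts.

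**Figure D3:**
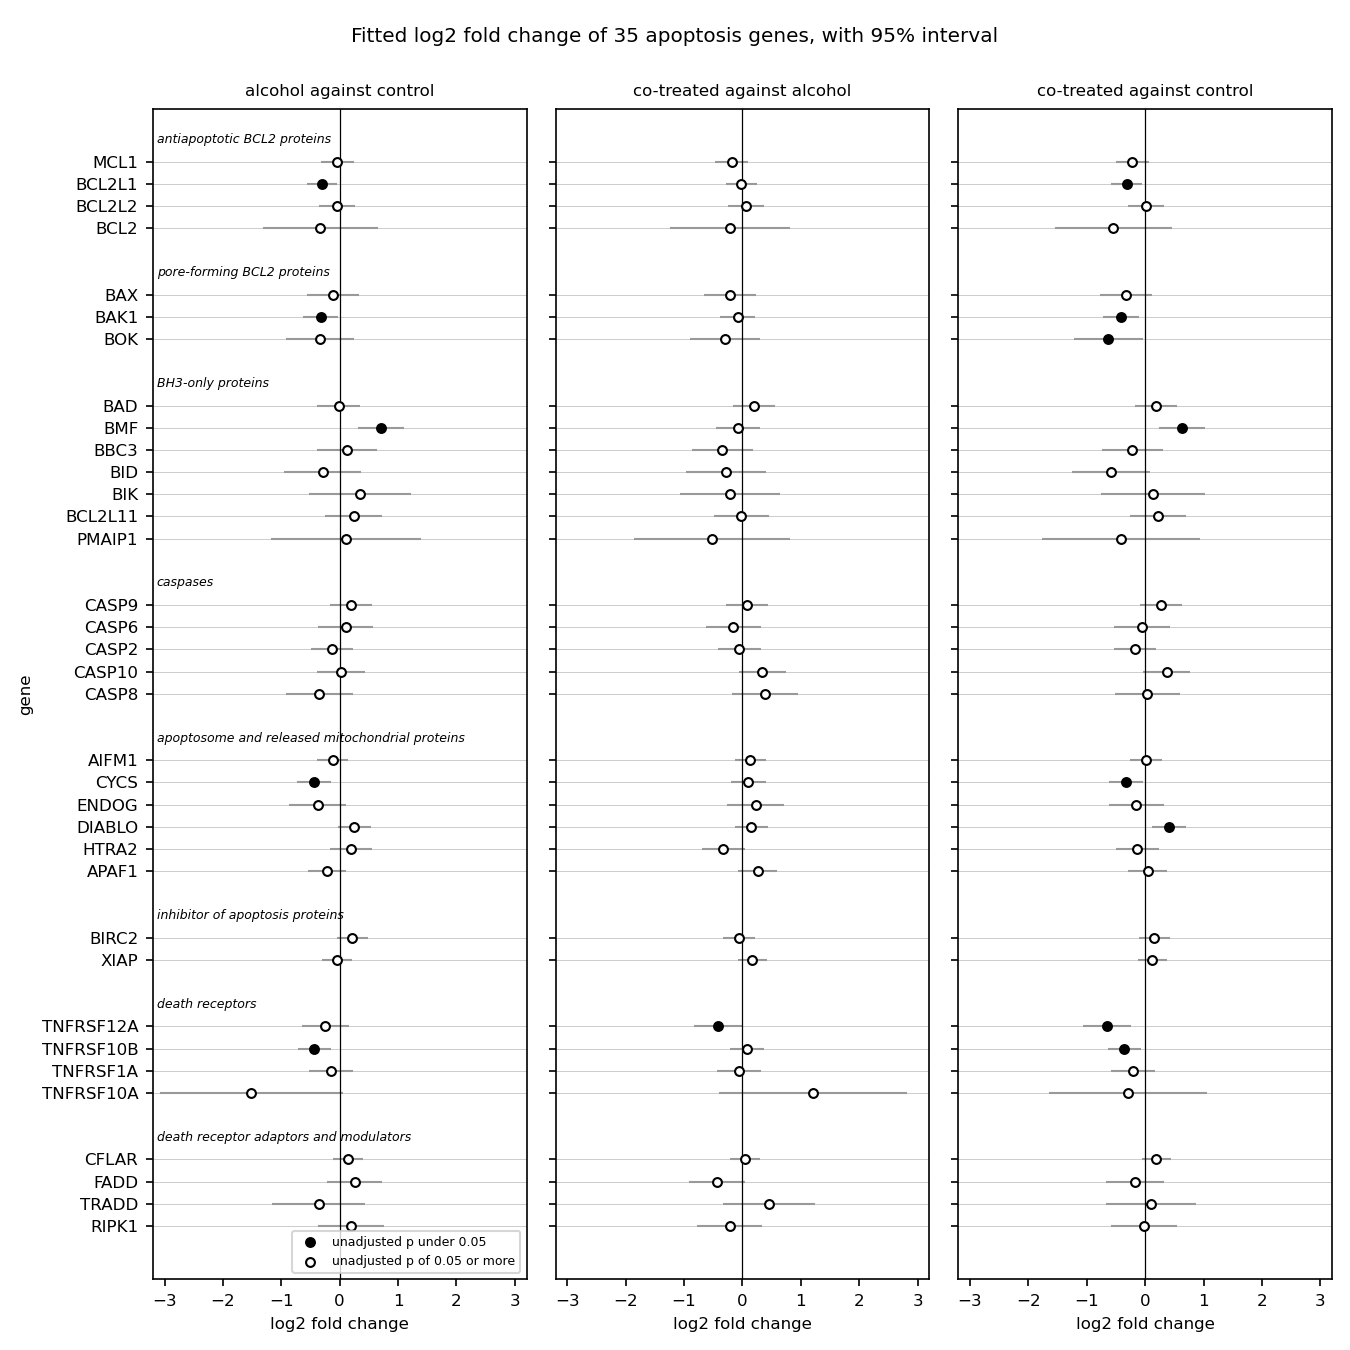
Fitted log2 fold change of the 35 genes by role in the 3 comparisons, with 95% intervals from the edgeR fit; filled points have an unadjusted p under 0.05 and open points do not, and no point passed the adjusted threshold. BMF at 0.71 and 0.63 stands to the right of 0 in both comparisons with control, and TNFRSF10A has the widest interval.

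Of the proteins that mitochondria release and the apoptosome, CYCS and DIABLO lay on opposite sides of the control. CYCS (cytochrome c), an electron carrier of the respiratory chain that also triggers the apoptosome, lies at chr7:25118656-25125260 behind the promoter printed above. It stood at 72.7 and 66.2 FPKM in the controls, 57.4 and 47.7 FPKM with alcohol and 55.6 and 58.2 FPKM in co-treated cells. Both controls were above the other 4 libraries. CYCS gave a log2 fold change of -0.44 (SE 0.14, edgeR unadjusted p = 0.00653, adjusted p = 0.244) with alcohol, a factor of 0.738, and -0.33 (SE 0.14, adjusted p = 0.323) for co-treated against control. Leaving out alcohol replicate 1 moved the value with alcohol to -0.61, and leaving out alcohol replicate 2 to -0.28. Co-treated against alcohol gave 0.10 with an interval of -0.19 to 0.40. DIABLO (SMAC), which binds inhibitor of apoptosis proteins, lies at chr12:122207662-122227456 and overlaps B3GNT4, which had at most 3 expected counts. It stood at 23.0 and 21.5 FPKM in the controls, 26.0 and 29.5 FPKM with alcohol and 30.2 and 30.5 FPKM in co-treated cells. Every library with alcohol was above both controls, and the co-treated libraries were the highest. The log2 fold change of DIABLO was 0.25 (SE 0.13, edgeR unadjusted p = 0.0801) with alcohol and 0.41 (SE 0.13, unadjusted p = 0.00892, adjusted p = 0.215) for co-treated against control.

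The other genes of this role did not separate from control beyond the spread of their libraries in the fit. AIFM1, a mitochondrial flavoprotein that can move to the nucleus, stood at 66.8 and 72.8 FPKM in the controls, 67.8 and 64.2 FPKM with alcohol and 67.0 and 78.4 FPKM in co-treated cells. The groups overlapped, and the interval for alcohol against control was -0.39 to 0.15 on the log2 scale. HTRA2, a mitochondrial serine protease, stood at 10.3 and 12.4 FPKM, 13.4 and 13.3 FPKM, and 11.8 and 9.58 FPKM in the same order. Both alcohol libraries were above the other 4, and co-treated against alcohol gave -0.33 (SE 0.17, edgeR unadjusted p = 0.0777), or -0.19 without co-treated replicate 2. APAF1, the scaffold of the apoptosome, stood at 6.87 and 5.60 FPKM, 4.91 and 6.42 FPKM, and 6.98 and 6.18 FPKM, and co-treated against alcohol gave 0.26 (SE 0.15, edgeR unadjusted p = 0.117), or 0.15 without alcohol replicate 1. ENDOG, a mitochondrial nuclease, gave -0.38 (SE 0.22) with alcohol, while its co-treated libraries were far apart with an SD of 12.3 FPKM around 30.4 FPKM. In gene spans, introns included, HTRA2 overlaps AUP1 and LOXL3, ENDOG overlaps SPOUT1, AIFM1 overlaps RAB33A and APAF1 overlaps ANKS1B. Shared exons were not checked, and how reads of such pairs were divided is not given in the sources used here.

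No caspase of the list had an unadjusted p under 0.05 in any comparison. CASP9, the initiator that the apoptosome activates, had the highest level of the 5. It stood at 12.9 and 11.2 FPKM in the controls, 15.4 and 12.4 FPKM with alcohol and 14.5 and 15.0 FPKM in co-treated cells. The control and alcohol libraries overlapped and both co-treated libraries were above both controls, with a log2 fold change of 0.27 (SE 0.17) and an interval of -0.09 to 0.63. CASP10, an initiator of the extrinsic route, stood at 3.58 and 3.84 FPKM, 3.68 and 4.53 FPKM, and 5.33 and 4.50 FPKM in the same order. Its expected counts were 104 and 111, 93.8 and 128, and 150 and 132, highest in the co-treated libraries, and co-treated against alcohol gave 0.34 (SE 0.19, edgeR unadjusted p = 0.0908), or 0.14 if alcohol replicate 1 is left out and 0.56 if alcohol replicate 2 is. CASP8, the main initiator of that route, gave -0.35 (SE 0.26) with alcohol and 0.39 (SE 0.26) for co-treated against alcohol, with alcohol replicate 1 the lowest library at 2.60 FPKM. CASP2 and CASP6 lay within 0.18 of 0 on the log2 scale in all 3 comparisons. The summed level of the 5 caspases was 33.7 to 40.1 FPKM over all libraries.

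The inhibitor of apoptosis proteins BIRC2 and XIAP were both measured closely. BIRC2 (cIAP1), a ubiquitin ligase that shapes signalling from TNF receptors, stood at 19.2 and 18.8 FPKM in the controls, 22.5 and 25.5 FPKM with alcohol and 22.7 and 22.6 FPKM in co-treated cells. All libraries with alcohol were above both controls. The log2 fold change of BIRC2 with alcohol was 0.22 (SE 0.13, edgeR unadjusted p = 0.103), a factor of 1.16 with an interval of 0.965 to 1.40. XIAP gave -0.05 (SE 0.12) with alcohol and 0.12 (SE 0.12) for co-treated against control, with every library between 10.9 and 13.3 FPKM. BIRC3, which lies beside BIRC2 on chromosome 11, stayed between 2 and 7 expected counts.

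The death receptors held both the highest level of the list and its loosest fold change. All 4 had lower fitted values in each comparison with control (50.6% of all genes with alcohol and 50.2% for co-treated). TNFRSF12A (FN14), at chr16:3020368-3022383, is grouped here although it has no death domain. It stood at 191 and 150 FPKM in the controls, 175 and 118 FPKM with alcohol and 123 and 100 FPKM in co-treated cells. Control and alcohol libraries overlapped, both co-treated libraries were below both controls, and replicate 2 was the lower of each pair. The log2 fold change of TNFRSF12A was -0.25 (SE 0.19, edgeR unadjusted p = 0.212) with alcohol, -0.41 (SE 0.19, unadjusted p = 0.0497, adjusted p = 0.897) for co-treated against alcohol, and -0.66 (SE 0.19, unadjusted p = 0.00416, adjusted p = 0.158) for co-treated against control. With 1 library left out, co-treated against alcohol was -0.07 (alcohol replicate 1 out) and -0.70 (alcohol replicate 2 out), and alcohol against control was -0.03 without control replicate 1 and 0.04 without alcohol replicate 2. Co-treated against control is a factor of 0.633 with an interval of 0.476 to 0.842. Without alcohol replicate 1, a library that is in neither group of this last comparison but in the shared estimate of spread, its log2 value was -0.66 with an edgeR adjusted p of 0.0487. Over all alternatives the adjusted p ranged from 0.0256 to 0.592. The smooth muscle markers moved the same way, ACTA2 with a log2 fold change of -1.25 (SE 0.20, edgeR adjusted p = 0.0203) and TAGLN with -0.97 (SE 0.26, adjusted p = 0.127) for co-treated against control, and their part in the values of TNFRSF12A was not tested.

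TNFRSF10B and TNFRSF10A are the receptors of TRAIL that carry a death domain. TNFRSF10B (DR5) stood at 24.4 and 24.5 FPKM in the controls, 19.3 and 17.8 FPKM with alcohol and 22.1 and 17.5 FPKM in co-treated cells. Both controls were above the other 4 libraries. The log2 fold change of TNFRSF10B was -0.44 (SE 0.13, edgeR unadjusted p = 0.00521, adjusted p = 0.228) with alcohol, a factor of 0.739, and -0.36 (SE 0.13, adjusted p = 0.265) for co-treated against control, the latter -0.23 without co-treated replicate 2. Its locus overlaps RHOBTB2, which had 327 and 315 expected counts in the controls, 378 and 351 with alcohol and 421 and 382 in co-treated cells. TNFRSF10A (DR4) had 10.7 and 11.7 expected counts in the controls, 7 and 1.18 with alcohol and 8.89 and 9.56 in co-treated cells. Its log2 fold change with alcohol was -1.51 (SE 0.73, edgeR unadjusted p = 0.0574) with an interval from -3.08 to 0.05, so a difference was not detectable at this depth. TNFRSF1A lay between 9.21 and 10.7 FPKM in all libraries, with a log2 fold change of -0.15 (SE 0.17) with alcohol.

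**Figure D4:**
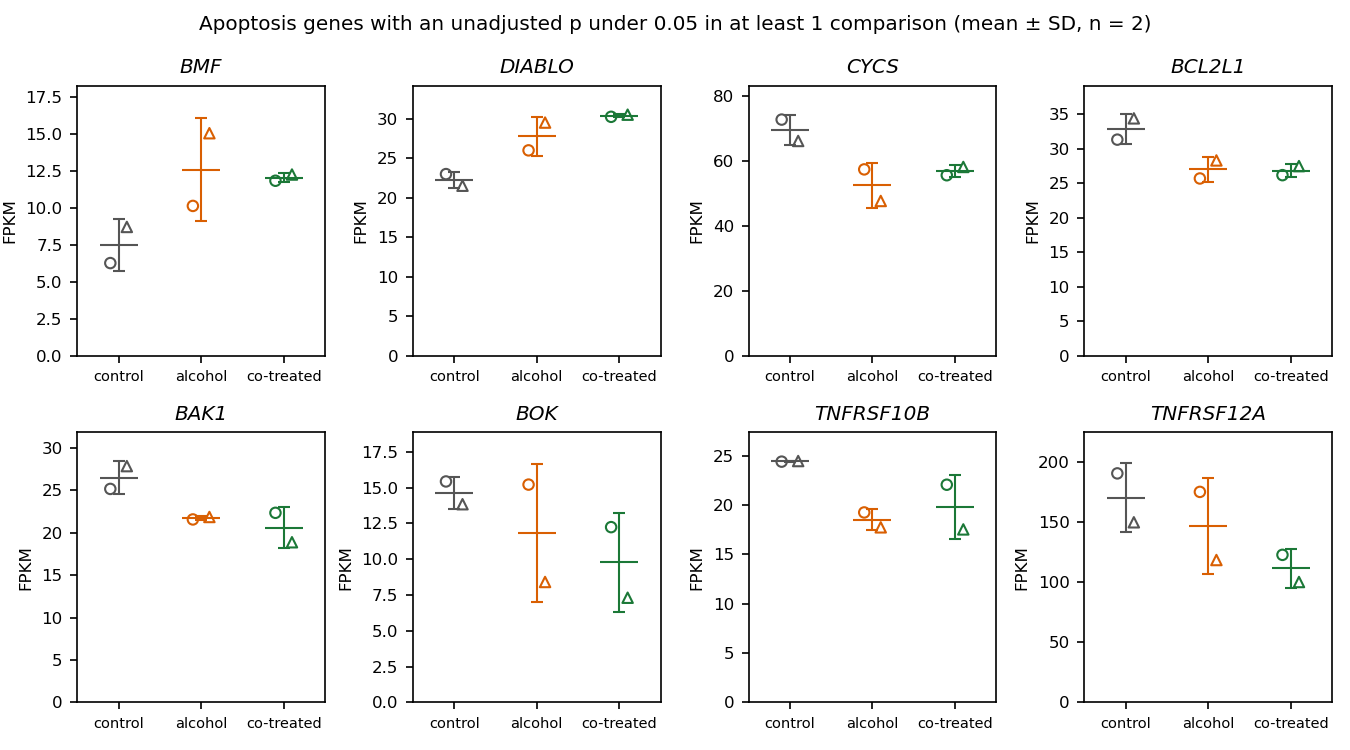
Level in FPKM (axes from 0) of the 8 genes with an unadjusted p under 0.05 in at least 1 comparison, by group, with replicate 1 as a circle, replicate 2 as a triangle and the mean ± SD (n = 2) as bars. BMF and DIABLO lie lowest in the controls, while CYCS, BCL2L1, BAK1 and TNFRSF10B lie highest there and BOK and TNFRSF12A overlap between control and alcohol.

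Among the adaptors and modulators of death receptors, CFLAR (FLIP), which competes with CASP8 for the receptor complex, had the highest level. CFLAR stood at 30.4 and 31.9 FPKM in the controls, 34.2 and 39.8 FPKM with alcohol and 37.8 and 40.3 FPKM in co-treated cells. All libraries with alcohol were above both controls, but on counts the log2 fold changes were 0.15 (SE 0.12) and 0.19 (SE 0.12), and the assigned length of CFLAR differed between libraries by a factor of 1.21. FADD, the adaptor that brings CASP8 to the receptors, stood at 8.36 and 6.77 FPKM, 9.11 and 9.49 FPKM, and 7.63 and 6.24 FPKM in the same order. Both alcohol libraries were above the other 4, and co-treated against alcohol gave -0.43 (SE 0.22, edgeR unadjusted p = 0.0740, adjusted p = 0.90). TRADD, an adaptor of TNFRSF1A, gave -0.36 (SE 0.37) with alcohol and 0.46 (SE 0.37) for co-treated against alcohol, and RIPK1, a kinase that directs TNF signalling to survival or death, gave 0.19 (SE 0.26) and -0.22 (SE 0.26).

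A further list of 37 apoptosis genes and one of 9 regulators of BH3-only genes, both chosen for their roles, were read from the same fit. Of 29 further genes tested, none was called by edgeR, DESeq2 or limma on log2(FPKM + 1). In edgeR 3 had an unadjusted p under 0.05 in each comparison, all with fitted values below 0, against 1, 0 and 1 in DESeq2 and 2, 2 and 1 in limma. The 3 of 29 are 10.3%, where the background in edgeR was 11.0%, 5.55% and 12.6% of all genes. With alcohol these were TNFRSF10D, a TRAIL receptor without a working death domain, at -0.85 (SE 0.19, edgeR adjusted p = 0.119), BIRC5 (survivin), a protein of dividing cells, at -0.89 (SE 0.34), and NOL3, a repressor of apoptosis in muscle, at -0.70 (SE 0.26). NOL3 stood at 8.68 and 8.70 FPKM in the controls, 6.22 and 4.67 FPKM with alcohol and 8.20 and 6.81 FPKM in co-treated cells. BIRC5 stood at 16.35 and 38.4 FPKM, 10.27 and 20.33 FPKM, and 19.31 and 12.69 FPKM in the same order. Its controls were far apart and overlapped both treated groups. TRAF3, TNFRSF11B and TNFRSF25 had lower fitted values in co-treated than in alcohol libraries, at -0.45 (SE 0.17), -1.06 (SE 0.38) and -1.08 (SE 0.42), and TRAF3, TNFRSF10D and BIRC5 in co-treated than in control libraries, at -0.47 (SE 0.17), -0.57 (SE 0.18) and -0.83 (SE 0.34).

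Of the 8 regulators tested, none passed the threshold in edgeR, with 2, 1 and 3 at an unadjusted p under 0.05 (11.0%, 5.55% and 12.6% of all genes), and none in limma on log2(FPKM + 1), with 3, 2 and 2. DESeq2 called 1 with alcohol and 1 for co-treated against alcohol, JUN in both (DESeq2 adjusted p = 0.0126 and 0.0273). It called 0.741% and 0.0335% of all genes that it gave an adjusted p in these comparisons. Of the 8 regulators, 2, 1 and 0 had an unadjusted p under 0.05 in DESeq2. JUN, a subunit of AP-1, stood at 62.2 and 54.1 FPKM in the controls, 81.3 and 107 FPKM with alcohol and 62.9 and 53.6 FPKM in co-treated cells. Both alcohol libraries were above the other 4. JUN gave a log2 fold change of 0.65 (SE 0.14, edgeR unadjusted p = 0.000456, adjusted p = 0.113) with alcohol and -0.70 (SE 0.14, unadjusted p = 0.000255, adjusted p = 0.423) for co-treated against alcohol. FOXO3, a forkhead factor, gave 0.54 (SE 0.19, edgeR unadjusted p = 0.0133) with alcohol and 0.42 (SE 0.19) for co-treated against control. DDIT3 (CHOP), a factor of the stress of the endoplasmic reticulum, gave 0.64 (SE 0.25) and ATF4 gave -0.27 (SE 0.11) for co-treated against control, both with an unadjusted p under 0.05 in edgeR.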

How the data were processed

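RNA sequencing of 6 libraries was analysed, grouped by the treatment in their titles. For every library the authors deposited a table with the length, the expected count and the FPKM of each gene, and for the series 1 table of FPKM with symbols. The submitters' processing notes name HISAT2 2.0.4, Bowtie2 2.2.5, RSEM 1.2.12 and hg38, without their order. Of the expected counts deposited by the authors 33.9% were not whole, and they were rounded. A gene not listed for a library was set to 0. The FPKM was used for levels and in the limma alternatives only.

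Counts were tested two-sided with the quasi-likelihood F test of edgeR 4.0.16 in R 4.3.3, with TMM normalization, filterByExpr and all 6 libraries in 1 fit, with Benjamini-Hochberg adjustment at 0.05 over 14926 genes. The paper names no count test for the sequencing. It calls genes by a threshold on the fold and on a probability, which was not applied here. The fit was tested on simulated data. Alternatives were DESeq2 1.42.0, limma 3.58.1 on log2(FPKM + 1) and log2(FPKM + 0.1), RLE size factors, no filter, a minimum of 10 counts in every library, a replicate block, only the groups compared, and each library left out in turn. P-values measure the spread between libraries, which may be technical, since nothing in the labels says that replicates came from separate cultures. Floors cover counting error only. Strand use in counting is not given in the sources used here. Whether reads of a gene and of its antisense partner were told apart is therefore not known.

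The genes and lists were chosen with earlier results of these data known. Described in full are genes past the adjusted threshold, otherwise those with an unadjusted p under 0.05 or, if fewer than 5, the 5 smallest, and the gene with the highest mean FPKM of each role. Of the added lists, genes with an unadjusted p under 0.05 are named. Some genes of these lists are not reported here. FASLG, TNF and CD3E were not listed as symbols. Coordinates and the 30 promoters are from RefSeq, GRCh38.p14. Overlaps of genes are overlaps of these coordinates, introns included. The motifs were chosen with the results known.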

Additional observations from a re-analysis of the deposited data

How the results depend on the processing

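With alcohol against control, the count of the 35 genes past the adjusted threshold was 0 to 1 with a library left out, the count at an unadjusted p under 0.05 was 2 to 6, and the count over the whole table was 1 to 213. DESeq2 gave 3 genes at an unadjusted p and 72 over the whole table, limma on log2(FPKM + 1) gave 0 over the table and on log2(FPKM + 0.1) gave 2, no filter gave 2, a minimum of 10 counts gave 26, the replicate block gave 48 and only the groups compared gave 3, against 10. For co-treated against alcohol, leaving out a library gave 1 to 4 genes at an unadjusted p and 1 to 22 over the table, against 1 and 2. The count at an unadjusted p was 0 with limma on log2(FPKM + 1), with RLE size factors and without a filter. Over the table it was 5 with DESeq2, 1 with limma on log2(FPKM + 1), 1 without a filter, 0 with a minimum of 10 counts, 5 with the replicate block and 4 with only the groups compared. For co-treated against control, leaving out a library gave 0 to 1, 3 to 8 and 1 to 162, against 0, 8 and 54. The count over the table was 123 with DESeq2, 2 and 3 with limma on log2(FPKM + 1) and log2(FPKM + 0.1), 15 without a filter, 136 with the replicate block and 154 with only the groups compared. The causes were not tested.

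Of 40 named log2 fold changes, 10 changed sign in at least 1 of 14 alternatives. With alcohol, MCL1 was 0.0145 and BAD 0.0406 with limma on log2(FPKM + 1), and 0.0148 and 0.0418 on log2(FPKM + 0.1). The medians of all genes in these fits were 0.0303 and 0.0354. With libraries left out, alcohol against control ranged from -0.14 to 0.0766 for MCL1, -0.35 to 0.21 for BAX, -0.0250 to 0.0224 for BAD, -0.0068 to 0.38 for CASP9 and -0.59 to 0.0395 for TNFRSF12A. Co-treated against alcohol ranged from -0.0128 to 0.38 for BAD, -0.11 to 0.28 for CASP9 and -0.13 to 0.0024 for BIRC2, and co-treated against control from -0.0281 to 0.37 for BAD and -0.12 to 0.14 for AIFM1.

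Replicate numbers are shared by the groups. Same-numbered libraries deviated together at r = 0.114 for control and alcohol, -0.0162 for control and co-treated and 0.0412 for alcohol and co-treated. These values are over all genes and include counting error, so they cannot settle whether the numbers pair the samples. With the replicate block, TNFRSF12A for co-treated against control was -0.65 with an edgeR adjusted p of 0.0256, the single gene of the 35 past the threshold (1 against 0).

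With 2 libraries a group at this depth, 6 of the 35 genes (BCL2, PMAIP1, TNFRSF10A, BIK, TRADD and BMF) had intervals for alcohol against control that reached beyond a factor of 2. RNA levels say nothing of cleavage or binding of these proteins. No library received losartan alone.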
